A study of Mus musculus with 99 samples.

Results

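The ventrobasal thalamus (VBT), the thalamic territory that relays touch from the body and face to the cortex, was compared with 3 forebrain regions in the offspring of dams that drank plain water. The libraries were chosen by their labels alone: 10 from VBT, 9 from somatosensory cortex (S1), 10 from prelimbic cortex (PrL) and 10 from nucleus accumbens (NAc), 39 of the 99 libraries in the series. All offspring were wildtype and juvenile, from C57BL/6 dams. Both sexes were present, with 5 libraries per sex and region except 4 from S1 of males. VBT was set against each other region in turn, and genes higher or lower in VBT against all 3 were collected. The same genes were then read in the 40 libraries of the same regions from offspring of dams given fentanyl, an opioid agonist, at 10 µg/ml in drinking water from embryonic day 0 to weaning. The 20 libraries of the ventral tegmental area were not used here. Each library was made from 10 ng of RNA of a tissue punch, so it holds all cells of the punch, and fewer cells of a type and less RNA per cell cannot be told apart. The labels do not give ages in days, litters, or whether regions came from the same animals, so p-values measure only the spread between these libraries, which may be partly technical.

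The thalamus is a part of the diencephalon and passes most sensory and motor signals to the cerebral cortex. Its principal cells are glutamatergic relay neurons, which load transmitter with the vesicular transporter VGLUT2 and depend during development on transcription factors such as TCF7L2 and GBX2. Cortex and accumbens belong to the telencephalon, whose neurons arise under other factors. Relay neurons switch between tonic and burst firing through T-type calcium channels and HCN pacemaker channels, and in rodents they receive most of their inhibition from the neighbouring thalamic reticular nucleus.

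Counts assigned to genes ranged from 24434050 to 48417581 per water library and from 23032078 to 52069639 per fentanyl library. At this depth a gene with a count of 0 could still be present at up to 3 counts, which is between 0.0620 and 0.123 CPM (gene counts scaled to a library total of 1000000) in the water libraries, for counting error only. Reads outside annotated features made up between 10.3% and 12.3% in VBT, 13.1% and 15.8% in S1, 11.5% and 13.7% in PrL, and 11.2% and 17% in NAc water libraries. Some libraries stood apart. VBT male water 3 held the least Prkcd, Tcf7l2 and Slc17a6 of the 10 VBT water libraries. It also held the highest summed CPM of the oligodendrocyte (50225), striatum (1227) and reticular thalamus (2233) marker lists. VBT female water 2 was next lowest for the same thalamic genes and held 4634 CPM of choroid plexus markers, against at most 246.5 in the other 9. In PrL, female water 5 and male water 3 held the most Slc17a6, and in NAc the cortical transporter gene Slc17a7 ranged from 208 to 1183 CPM. The part of these libraries in the results was not tested beyond fits that left them out. Without VBT male water 3 and female water 2, called the VBT pair below, among named and listed genes 4 of 98 higher ones (Dsp, Six3 and Tcf7l1 among them) and 2 of 78 lower ones (Gabrb1 and Slc17a7) lost their call, and 8 of 92 without a call gained one, Drd1, Tac1 and Sox9 among them. In males alone 9 of the 98 and 10 of the 78 lost their call, Cacna1i and Bcl11b among them.

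Of 19735 genes tested, 4510 (22.9%) were higher in VBT against all 3 regions and 4603 (23.3%) were lower, at an adjusted p under 0.05 in each contrast (edgeR quasi-likelihood test, Benjamini-Hochberg adjustment over all genes tested). A difference of at least 2-fold against each region was met by 1215 genes (6.16%) higher in VBT and 1584 (8.03%) lower. Protein-coding genes numbered 948 of the 1215 and 924 of the 1584. Taken pair by pair, VBT was higher than S1 in 34.8% of genes and lower in 35.4%, higher than PrL in 34.4% and lower in 36.1%, and higher than NAc in 33.5% and lower in 36.8%. With at least 2-fold added, these shares were 10.7% and 13.6% for S1, 10.9% and 13.8% for PrL, and 9.84% and 13.7% for NAc. Any list of genes therefore has to be read against a background in which most genes differ between VBT and a given region. The lists below were chosen with earlier results of these data known, so their counts describe these data and are no independent test. The median log2 fold change over all genes was -0.01, -0.02 and -0.03 in the 3 contrasts. In 1619 genes (8.2%) every VBT library lay above all 29 others in CPM, and in 1773 (8.98%) every VBT library lay below them.

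The 3 genes taken as markers of thalamic relay neurons were all high in VBT and low elsewhere. Tcf7l2, which encodes a transcription factor of the TCF/LEF family that acts with beta-catenin, held 92.0, 225 and 309.8 CPM as the lowest, median and highest of the 10 VBT water libraries. It held at most 6.93 CPM in S1, 7.62 in PrL and 10.9 in NAc, so no library of another region reached the VBT range. Its log2 fold changes were 5.44 ± 0.20 (SE) against S1, 5.61 ± 0.19 against PrL and 4.85 ± 0.18 against NAc (largest adjusted p 6.47e-23, edgeR). Prkcd, which encodes the protein kinase C isoform delta, held 667, 1696 and 2103 CPM in VBT. It held 8.44 to 12.9 CPM in S1, 7.27 to 11.5 in PrL and 8.75 to 67.4 in NAc, where 1 library at 67.4 lay above the rest. Slc17a6, the gene of VGLUT2, held 152, 372 and 490.1 CPM in VBT. S1 came next for Slc17a6 at 32.5, 37.1 and 58.9 CPM, above PrL at 9.72, 12.5 and 31.1 and NAc at 4.41, 10.2 and 26.0. The lowest VBT library for all 3 genes was male water 3, and it still lay above every library of the other regions.

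**Figure D1:**
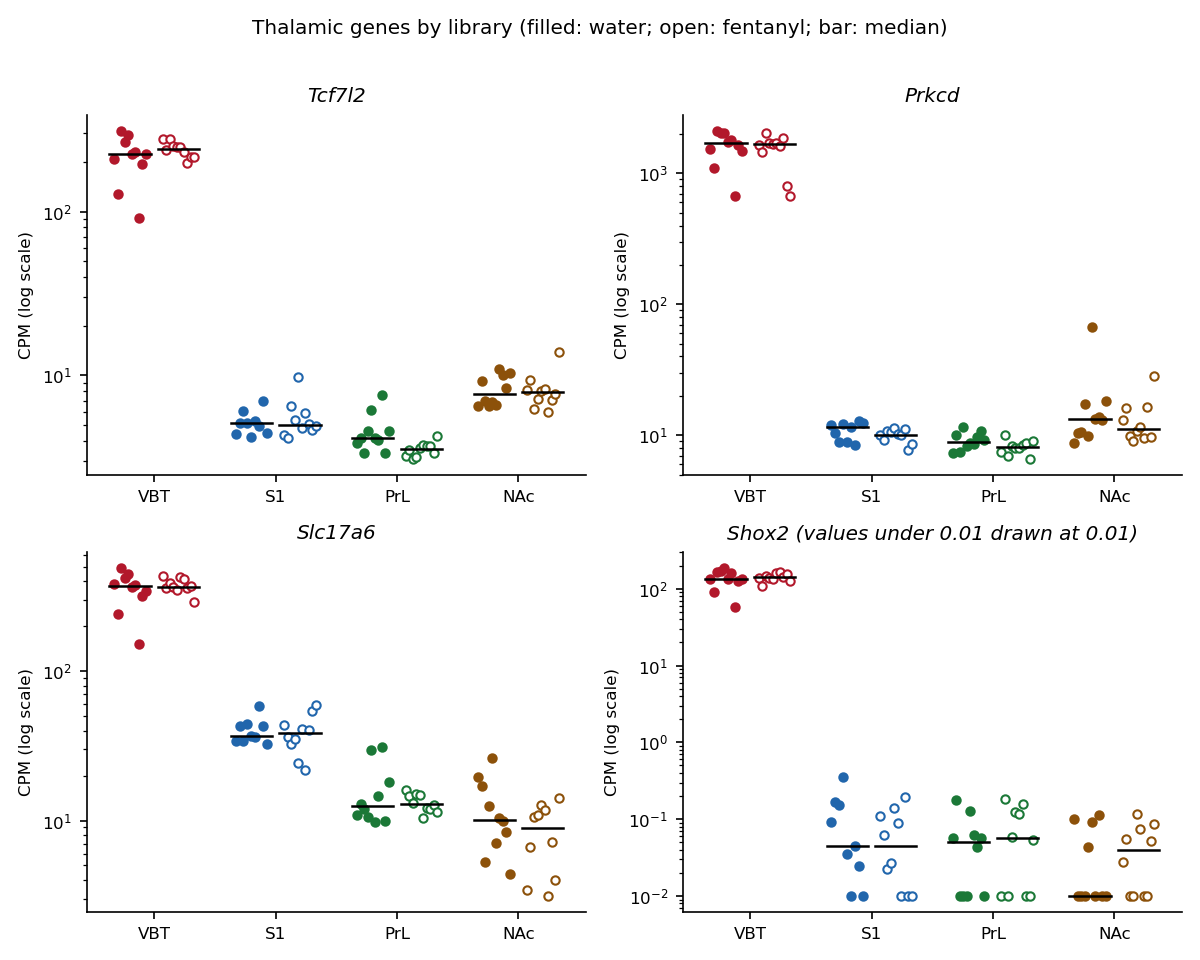
CPM of Tcf7l2, Prkcd, Slc17a6 and Shox2 (vertical log axes) in each library of VBT, S1, PrL and NAc, with water libraries filled, fentanyl libraries open and bars at the medians. Every VBT library of either treatment lies above every library of the other 3 regions for each gene.

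Shox2, a homeobox gene, had the largest difference by the smallest of the 3 contrasts. It held 57.2, 134 and 184 CPM in VBT and at most 0.355 CPM in any of the other 29 libraries, with a median of 0 in NAc. Its log2 fold changes were 10.42 ± 0.31 (SE) against S1, 11.36 ± 0.32 against PrL and 11.89 ± 0.33 against NAc. The gene (GRCm38 chr3:66971727-66981771, minus strand) overlaps Rsrc1, and how reads of overlapping genes were assigned is not given in the sources used here. The 250 bases before the first listed start are shown for Shox2 and the 3 marker genes, the gene with the largest difference and the markers the comparison rests on. Tcf7l2, Prkcd and Slc17a6 each have 2 listed promoters, and the second was not searched or counted. Sequences are from RefSeq on GRCm38.p6, read 5′ to 3′ on the strand of the gene, with each CpG in capitals. They lie at chr3:66981772-66982021, minus strand, for Shox2, chr19:55741560-55741809, plus strand, for Tcf7l2, chr14:30626209-30626458, minus strand, for Prkcd, and chr7:51621580-51621829, plus strand, for Slc17a6.
Shox2: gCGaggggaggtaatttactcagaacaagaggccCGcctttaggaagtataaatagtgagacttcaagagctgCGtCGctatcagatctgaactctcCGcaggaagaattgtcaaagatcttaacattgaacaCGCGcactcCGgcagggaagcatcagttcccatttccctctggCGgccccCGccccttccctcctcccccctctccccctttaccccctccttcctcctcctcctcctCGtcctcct
Tcf7l2: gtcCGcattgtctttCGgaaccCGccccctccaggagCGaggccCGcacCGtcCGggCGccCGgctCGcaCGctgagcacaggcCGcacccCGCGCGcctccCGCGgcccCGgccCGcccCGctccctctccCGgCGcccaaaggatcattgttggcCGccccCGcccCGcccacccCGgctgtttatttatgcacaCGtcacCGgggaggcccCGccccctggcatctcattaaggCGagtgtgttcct
Prkcd: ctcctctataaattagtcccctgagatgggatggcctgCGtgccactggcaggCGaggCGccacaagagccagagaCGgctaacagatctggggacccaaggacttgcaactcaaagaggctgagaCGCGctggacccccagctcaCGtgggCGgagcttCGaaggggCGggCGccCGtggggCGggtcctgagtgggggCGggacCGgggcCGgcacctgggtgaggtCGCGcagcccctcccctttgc
Slc17a6: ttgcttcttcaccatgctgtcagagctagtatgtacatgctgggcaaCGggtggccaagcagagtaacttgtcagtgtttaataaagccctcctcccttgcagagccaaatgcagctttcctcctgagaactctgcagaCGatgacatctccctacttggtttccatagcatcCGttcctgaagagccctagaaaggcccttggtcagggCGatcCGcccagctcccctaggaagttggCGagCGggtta
The Tcf7l2 stretch had 30 CpG and a GC content of 72.8%, Prkcd 18 and 67.6%, Shox2 11 and 55.6%, and Slc17a6 7 and 53.2%. The median over 12878 tested genes with a listed promoter was 14 CpG, so Tcf7l2 and Prkcd lay above it, and Shox2 and Slc17a6 below. None of these 4 stretches held either of the TCF/LEF words CTTTGAA and CTTTGAT or the ROR half-site word AGGTCA, searched on both strands.

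Of 17 transcription factor genes listed for the thalamus, all tested, 14 were higher in VBT against all 3 regions, against 22.9% of all genes. Each of the 14 was at least 2-fold higher, against 6.16% of all genes. The list was chosen with earlier results of these data known. The median log2 fold change of the list was 4.63 against S1, 4.06 against PrL and 4.06 against NAc. Lef1, the gene of a second TCF/LEF factor, held 31.4, 78.4 and 103 CPM in VBT and at most 8.05 elsewhere. Rora, which encodes the retinoid-related orphan nuclear receptor alpha, reached 406, 967 and 1159 CPM in VBT against 118 to 231 in S1, 56.2 to 87.1 in PrL and 38.1 to 55.6 in NAc. S1 thus held more Rora than PrL or NAc, with no overlap between S1 and either. Prox1, a homeobox gene, varied little within VBT, at 132, 148 and 172 CPM, and its smallest log2 fold change was 3.0 (largest adjusted p 4.57e-27, edgeR). Gbx2, which thalamic neurons need early in development, was low even in VBT at 2.05, 8.38 and 17.1 CPM, with medians of 0 in S1 and PrL and up to 1.37 in NAc. Lhx9 held 7.20, 19.6 and 27.8 CPM in VBT and at most 1.01 elsewhere.

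The 4 Iroquois genes of the list were low but far higher in VBT than in the other regions. Mean CPM in VBT was 3.96 ± 0.645 (SD, n = 10) for Irx1, 3.47 ± 0.953 for Irx2, 2.84 ± 0.645 for Irx3 and 1.38 ± 0.415 for Irx5, and the highest library elsewhere held 0.619, 0.279, 0.248 and 0.127 CPM. The smallest log2 fold change of Irx2 was 6.16, and 7.29 without S1 female water 4. The zinc finger genes Zic1 and Zic4 were higher in VBT with smallest log2 fold changes of 2.77 and 1.79. Zic1 overlapped NAc, with 148 CPM in the lowest VBT library and 151 in the highest NAc library. Foxp2, a forkhead gene, was higher in VBT than in S1 (2.26 ± 0.25) and PrL (2.20 ± 0.24) but lower than in NAc (-0.94 ± 0.23, adjusted p 4.00e-04, edgeR). Lhx2 ran the other way from the list: it held 1.09, 3.10 and 6.99 CPM in VBT and at least 20.3 in every other library, with log2 fold changes of -4.07 against S1, -3.82 against PrL and -3.05 against NAc. Sox2, a gene of progenitors and glia as well as of some thalamic neurons, was not called against NAc (-0.04 ± 0.07, adjusted p 0.636).

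**Figure D2:**
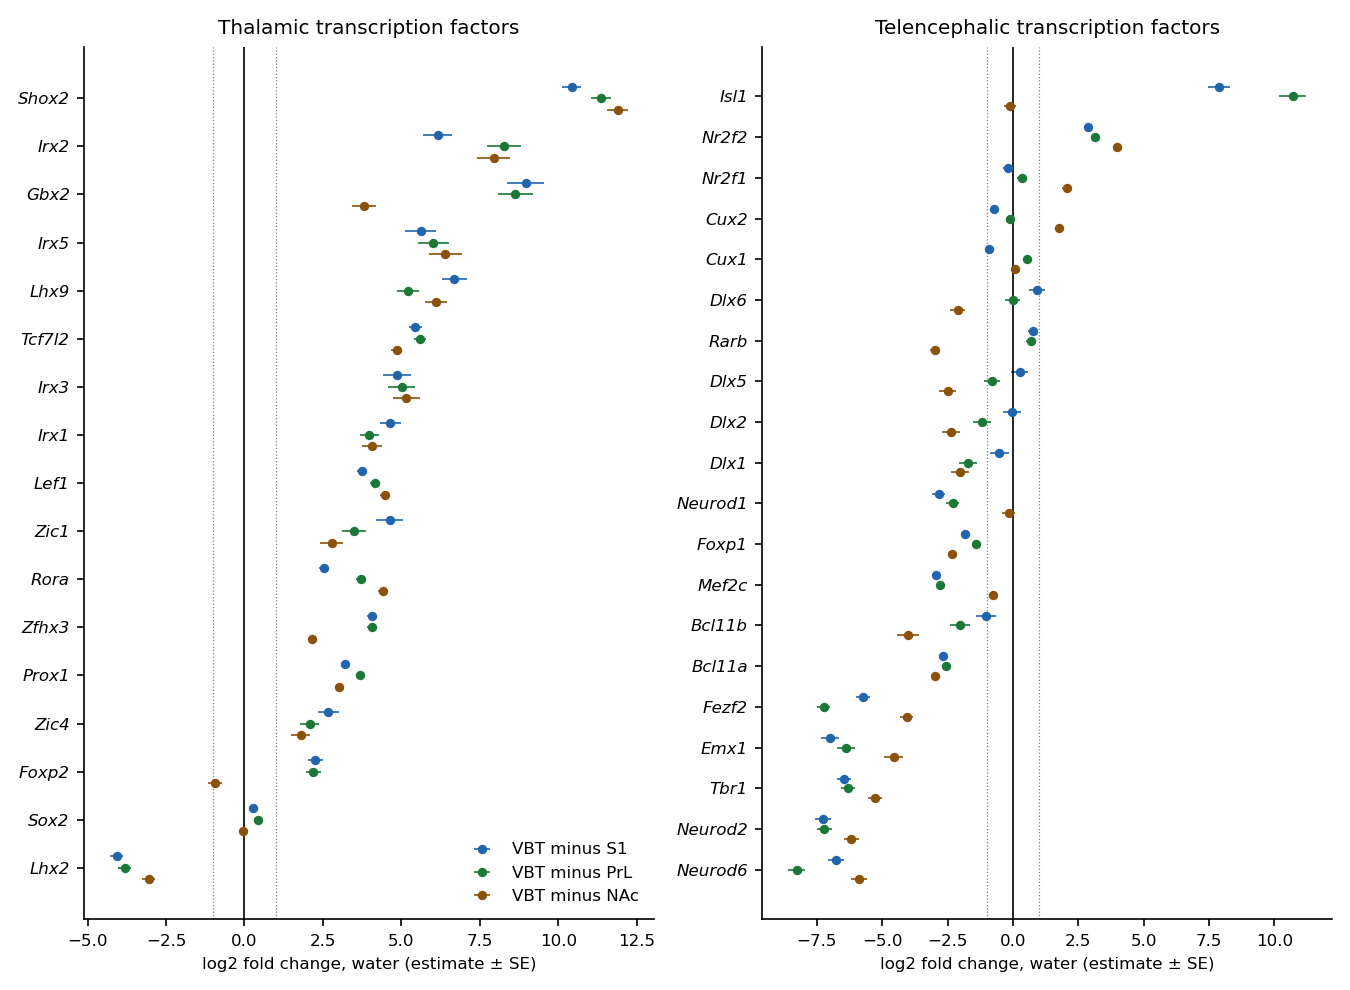
Log2 fold change of VBT over S1, PrL and NAc in water (horizontal axis, estimate ± SE) for members of the thalamic and telencephalic transcription factor lists, with dotted lines at 2-fold. Shox2 stands farthest to the right of the thalamic genes and Lhx2 to the left, while the cortical genes Neurod6, Neurod2 and Tbr1 lie below a log2 fold change of -4 in all 3 contrasts.

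The 12 protein-coding genes with the largest differences among those with a mean of 10 CPM or more in VBT and without overlap were of mixed kinds. Shox2 was followed by Abhd12b, a gene of an alpha/beta hydrolase family, which held 43.5, 128 and 195 CPM in VBT and at most 1.16 elsewhere (smallest log2 fold change 7.55). Wnt9b, which encodes a secreted Wnt ligand, held 10.5, 32.3 and 47.7 CPM against at most 0.638 (smallest log2 fold change 7.28). Prkcd came next, then Atp2a1 and Epn3. Epn3, of the epsin family of endocytic adaptors, held 29.5, 67.1 and 70.1 CPM against at most 1.53. All of these were lowest in VBT male water 3 among the VBT water libraries. Several carry names from muscle: Atp2a1 encodes the fast-muscle calcium pump SERCA1, Tnnt1 the slow skeletal troponin T, Synpo2 an actin-binding protein also called myopodin, and Ppp1r3a a glycogen-targeting subunit of protein phosphatase 1. Atp2a1 held 11.9, 34.0 and 43.5 CPM in VBT and at most 0.620 elsewhere. Tnnt1 held 71.6, 159 and 208 CPM, with the highest other library at 4.47. Synpo2 held 143, 363 and 429 CPM against 11.1, and Ppp1r3a 5.36, 12.5 and 16.3 against 0.714. Their smallest log2 fold changes were 6.45, 5.87, 5.36 and 5.06.

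Rab37, a small GTPase gene, held 82.0, 159 and 182 CPM in VBT. The highest other library was PrL male water 3 at 17.4 CPM, and the smallest log2 fold change went from 5.72 to 6.31 without it. Fam19a4, which encodes a secreted chemokine-like protein, and the homeobox gene Lhx9 completed the 12, with smallest log2 fold changes of 5.32 and 5.21. Atp2a1, Rab37 and Synpo2 each overlap another annotated gene (Rabep2, Cd300lf and Gm43744). Larger differences were few: the smallest of the 3 log2 fold changes was at least 4 for 63 genes and at least 5 for 35 genes higher in VBT, and as far below 0 for 80 and 26 genes lower in VBT.

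Promoters of the 24 genes named for the largest differences, 12 in each direction, were searched for TCF/LEF and ROR words, since Tcf7l2, Lef1 and Rora were among the VBT genes. Of these genes and the other markers, 26 in all, 19 had a RefSeq promoter, and 4 held a match in the 250 bases before the first listed start. The matched word is in capitals. AGGTCA on the minus strand of the gene began 92 bases before the start in Abhd12b (chr12:70153881-70154130, plus strand) and 103 in Atp2a1 (chr7:126463074-126463323, minus strand). CTTTGAT stood 163 bases before the start of Ppp1r3a (chr6:14755275-14755524, minus strand), and CTTTGAA 187 before that of Tbr1 (chr2:61804203-61804452, plus strand), a gene lower in VBT.
Abhd12b: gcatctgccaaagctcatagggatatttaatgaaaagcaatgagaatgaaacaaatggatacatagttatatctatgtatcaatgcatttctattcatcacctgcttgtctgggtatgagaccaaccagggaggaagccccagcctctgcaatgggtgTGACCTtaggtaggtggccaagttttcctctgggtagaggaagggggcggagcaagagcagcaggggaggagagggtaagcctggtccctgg
Atp2a1: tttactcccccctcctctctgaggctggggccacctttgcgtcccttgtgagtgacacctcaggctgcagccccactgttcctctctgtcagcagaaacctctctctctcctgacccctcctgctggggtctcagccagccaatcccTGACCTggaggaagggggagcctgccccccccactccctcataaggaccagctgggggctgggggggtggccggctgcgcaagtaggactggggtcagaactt
Ppp1r3a: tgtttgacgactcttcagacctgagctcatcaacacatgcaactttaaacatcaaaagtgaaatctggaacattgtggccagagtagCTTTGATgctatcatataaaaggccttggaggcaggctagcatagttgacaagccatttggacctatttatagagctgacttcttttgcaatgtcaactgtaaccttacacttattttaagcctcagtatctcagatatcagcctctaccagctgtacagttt
Tbr1: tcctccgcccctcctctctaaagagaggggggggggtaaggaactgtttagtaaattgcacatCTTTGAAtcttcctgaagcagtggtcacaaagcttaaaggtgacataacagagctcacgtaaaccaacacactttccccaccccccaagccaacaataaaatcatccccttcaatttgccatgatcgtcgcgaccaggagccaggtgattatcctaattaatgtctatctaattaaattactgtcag
Such matches were about as frequent in all genes. CTTTGAA or CTTTGAT stood in 5.70% of 825 promoters of genes at least 2-fold higher in VBT, 6.25% of 864 of genes at least 2-fold lower and 5.63% of 12878 over all genes tested. For AGGTCA the shares were 11%, 10.5% and 10.7%. A match is a description of these letters and no evidence of binding. The median number of CpG was 11 in the higher, 8 in the lower and 14 in all genes.

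Genes known from thalamic relay neurons were higher in VBT nearly throughout. Of 19 listed, a list chosen with earlier results of these data known, 18 were tested. Of these, 17 were higher against all 3 regions, each at least 2-fold, which 6.16% of all genes were. The median log2 fold changes were 3.65 against S1, 3.90 against PrL and 3.83 against NAc. The summed CPM of the list was 4138 to 10011 in VBT and at most 1116 in any other library. Ntng1, which encodes the axonal membrane protein netrin-G1, held 176, 455 and 543 CPM in VBT and at most 64.7 elsewhere. Amotl1, an angiomotin family gene, held 236, 651 and 744 CPM against 53.9 to 86.7 in NAc, the next region. Ramp3, the gene of an accessory protein of calcitonin family receptors, held 98.8, 173 and 204 CPM, and Rgs16, of a regulator of G-protein signalling, 86.0, 205 and 305. Both were at most 24.9 and 10.6 CPM elsewhere.

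Nefh, the gene of the heavy neurofilament chain, held 351, 508 and 580.5 CPM in VBT against at most 91.9 elsewhere. Vamp1, which encodes synaptobrevin 1, held 519, 615 and 720.1 CPM in VBT, 138 to 297 in S1 and at most 96.1 in NAc. Adarb1, the gene of the RNA-editing enzyme ADAR2, held 785, 1637 and 1870.4 CPM against at most 297. Their smallest log2 fold changes were 3.14, 1.68 and 2.70. The 1 tested gene of the list without a call was Calb2, of the calcium buffer calretinin, which marks higher-order and midline thalamus. It ranged from 2.94 to 27.8 CPM in VBT and overlapped all 3 regions, with 199 CPM in its highest PrL library. Slc6a4, the serotonin transporter that relay neurons carry early after birth, was under 0.1 CPM on average in all 4 regions and was not tested.

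The vesicular glutamate transporters split. Slc17a6 was 3.17 ± 0.28 log2 units higher in VBT than in S1, while Slc17a7, of VGLUT1, was lower in VBT than in S1 (-1.52 ± 0.22) and PrL (-1.99 ± 0.22). Against NAc the log2 fold change of Slc17a7 was -0.59 ± 0.21 (adjusted p 0.0134, edgeR), and the NAc libraries overlapped VBT. That call was lost without VBT male water 3 and female water 2 (-0.42), in males alone (-0.17) and without the 5 NAc libraries richest in Slc17a7. Per exon length, the VBT mean was 65.7 ± 18.4 RPKM (CPM per kilobase of exon, SD, n = 10) for Slc17a6 and 69.5 ± 18.2 for Slc17a7. Both genes were lowest in VBT male water 3, so these SDs include a spread shared between libraries. The difference within libraries was not tested. In S1 the 2 means were 7.48 ± 1.53 and 207 ± 16.9 RPKM. Slc17a8, of VGLUT3, was lowest in VBT at 0.0772, 0.806 and 5.13 CPM, and its smallest log2 fold change moved from -1.37 to -2.55 without the same VBT pair.

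Of the 4 TCF/LEF genes, Tcf7l2 and Lef1 set VBT apart, Tcf7l1 was slightly higher (smallest log2 fold change 0.34, a call lost without the VBT pair at 0.28), and Tcf7 was not called against S1 (0.19 ± 0.12) or PrL and was lower than in NAc (-0.66 ± 0.12). Genes of the Wnt pathway, in which these factors act with beta-catenin, did not follow as a group: 6 of 20 were higher and 3 lower against all 3 regions, with 22.9% and 23.3% over all genes and list medians of 0.04 against S1, -0.05 against PrL and 0.22 against NAc. Those at least 2-fold higher were 4 genes, against 6.16% of all genes. Nkd1, an intracellular inhibitor of Wnt signalling, held 31.3, 36.9 and 45.3 CPM in VBT and at most 18.3 elsewhere. Notum, a secreted enzyme that inactivates Wnt ligands, held 9.74, 15.7 and 18.7 CPM against at most 4.43. Rnf43, of a ubiquitin ligase that removes Frizzled receptors, held 7.67, 8.97 and 11.9 CPM, and the Frizzled receptor gene Fzd8 14.4, 18.2 and 24.8, without overlap with the other regions. Ctnnb1, of beta-catenin itself, was higher in VBT by 0.46 to 0.92 log2 units. Axin2, a common readout of Wnt activity, was not higher: its log2 fold changes were -0.18 against S1, -0.21 against PrL and -0.05 against NAc. Dkk3 was -5.49 against PrL, at 3.86, 7.55 and 24.4 CPM in VBT and at least 88.7 elsewhere.

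Protein kinase C isoforms differed in direction. Besides Prkcd, only Prkcq, of the theta isoform, was higher against all 3 regions (smallest log2 fold change 0.89), while 4 of the 8 tested isoform genes were lower. Over all genes 22.9% were higher and 23.3% lower. Prkca held 31.2, 37.4 and 75.3 CPM in VBT and at least 176 elsewhere, and Prkcb 151, 177 and 220.0 against at least 401. Per exon length, Prkcd averaged 292 ± 81.7 RPKM in VBT, Prkcb 23.3 ± 2.88 and Prkca 4.71 ± 1.43. In S1 Prkcb came first at 91.7 ± 5.96 RPKM, then Prkca at 31.4 ± 3.42, with Prkcd last at 1.95 ± 0.311. Prkch was higher in VBT than in S1 (3.47 ± 0.17) and PrL (3.45 ± 0.16) but was not called against NAc (-0.22 ± 0.14, adjusted p 0.162).

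Phospholipase C beta isoforms, which act upstream of protein kinase C, also went both ways. Plcb4 averaged 519 ± 131 CPM (SD, n = 10) in VBT and held 96.2 to 133 in S1, 51.8 to 115 in PrL and 26.3 to 39.5 in NAc. Plcb1 held 47.9, 62.8 and 129 CPM in VBT and at least 270.0 elsewhere. Per exon length, VBT averaged 57.9 ± 14.6 RPKM of Plcb4 and 6.42 ± 2.21 of Plcb1, and S1 averaged 13.2 ± 1.36 and 34.0 ± 3.5. Among the nuclear receptors next to Rora, Rorb was higher than in PrL (1.22 ± 0.15) and NAc (1.89 ± 0.15) but not called against S1 (-0.14 ± 0.15), whose layer IV expresses it. Foxp1 was lower against all 3, with a smallest log2 fold change of -1.40. None of 6 genes for cerebellins and delta glutamate receptors, synaptic adhesion partners, was called in 1 direction against all 3 regions. Cbln2 was called lower (-0.96, adjusted p 0.00248) once VBT female water 3 was left out, which held the most of the list in sum, 252 CPM against at most 127 in the other 9.

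Among 17 genes of channels and partners that shape burst and fast firing, 8 were higher and 3 lower in VBT against all 3 regions, with 22.9% and 23.3% over all genes and medians of 0.81 against S1, 0.87 against PrL and 0.51 against NAc. Hcn4 and Hcn2, of HCN pacemaker channels, were both higher. Hcn4 held 39.5, 102 and 125 CPM in VBT, 2.46 to 5.38 in S1, 7.83 to 23.5 in PrL and 6.89 to 12.8 in NAc. Hcn2 held 331, 386 and 456 CPM in VBT and at most 120.3 elsewhere. Its log2 fold changes were 1.87 ± 0.08 (SE) against S1, 2.15 ± 0.07 against PrL and 2.12 ± 0.07 against NAc, and those of Hcn4 4.82 ± 0.21 (SE) against S1, 2.90 ± 0.18 against PrL and 3.45 ± 0.19 against NAc. Per exon length, VBT averaged 121 ± 10.5 RPKM of Hcn2 and 15.6 ± 4.42 of Hcn4, and S1 averaged 34.0 ± 2.06 and 0.571 ± 0.150, so Hcn2 was above Hcn4 in both regions. Pex5l, which encodes TRIP8b, the auxiliary subunit of HCN channels, held 357, 405 and 429 CPM in VBT and at most 243 elsewhere.

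T-type calcium channel genes also went both ways. Cacna1g, of Cav3.1, held 130.1, 356 and 448 CPM in VBT, 108 to 134 in S1, 117 to 154 in PrL and 36.2 to 89.9 in NAc. Only VBT male water 3, at 130.1 CPM, fell within the range of the cortical libraries, and the log2 fold changes were 1.56 ± 0.15 (SE) against S1, 1.42 ± 0.15 against PrL and 2.47 ± 0.15 against NAc. Cacna1i, of Cav3.3, was lower in VBT, with a smallest log2 fold change of -0.34 (largest adjusted p 0.0356) that lost its call in 8 of 39 fits with 1 library left out. Cacna1h, of Cav3.2, was not called against S1 (0.20 ± 0.16) and was lower than in PrL and NAc. Kcnc1, of the fast potassium channel Kv3.1, held 457, 549 and 606 CPM in VBT, against at most 301 elsewhere. Kcnk3, of the leak channel TASK-1, was higher in VBT by 0.81 to 1.38 log2 units, while Kcnk9, of TASK-3, was lower than in S1 (-1.21 ± 0.13) and PrL and not called against NAc. Kcna2 was higher by a smallest log2 fold change of 0.22, a call lost in 11 of 39 fits with 1 library left out. Trpc4 held 0.887, 1.59 and 5.03 CPM in VBT and at least 7.51 elsewhere.

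GABA-A receptor subunit genes separated by subunit. Of 12, 3 were higher and 7 lower against all 3 regions, with 22.9% and 23.3% over all genes. The lower call of Gabrb1 (-0.20) was lost in 4 of 39 fits with 1 library left out, in each sex alone and without VBT male water 3 and female water 2, and Gabrg1 (-0.18, no call) was called lower in 12 of the 39. Gabra4 and Gabrd encode the alpha 4 and delta subunits, which pair in the extrasynaptic receptors of relay neurons. Gabra4 held 188, 391 and 472 CPM in VBT and 129 to 179 in S1, 113 to 139 in PrL and 124 to 189 in NAc, and Gabrd held 76.5, 145 and 179.5 CPM in VBT and 65.2 to 85.8, 34.9 to 62.1 and 59.2 to 108 in the same order. In both, the lowest VBT libraries overlapped other regions. Gabrb2 was higher with a smallest log2 fold change of 0.48, a call lost in males alone. Gabra5 held 2.40, 4.81 and 6.26 CPM in VBT and at least 22.3 elsewhere, and Gabra2 22.8, 28.7 and 40.1 against at least 82.9. Per exon length, the VBT means were 62.3 ± 15.2 RPKM for Gabra4, 48.7 ± 11 for Gabrd and 42.6 ± 9.32 for Gabrb2. These lie within or near each other's spread between libraries, and differences within libraries were not tested. Gabra2 was at 3.91 ± 0.753 and Gabra5 at 1.43 ± 0.444.

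**Figure D3:**
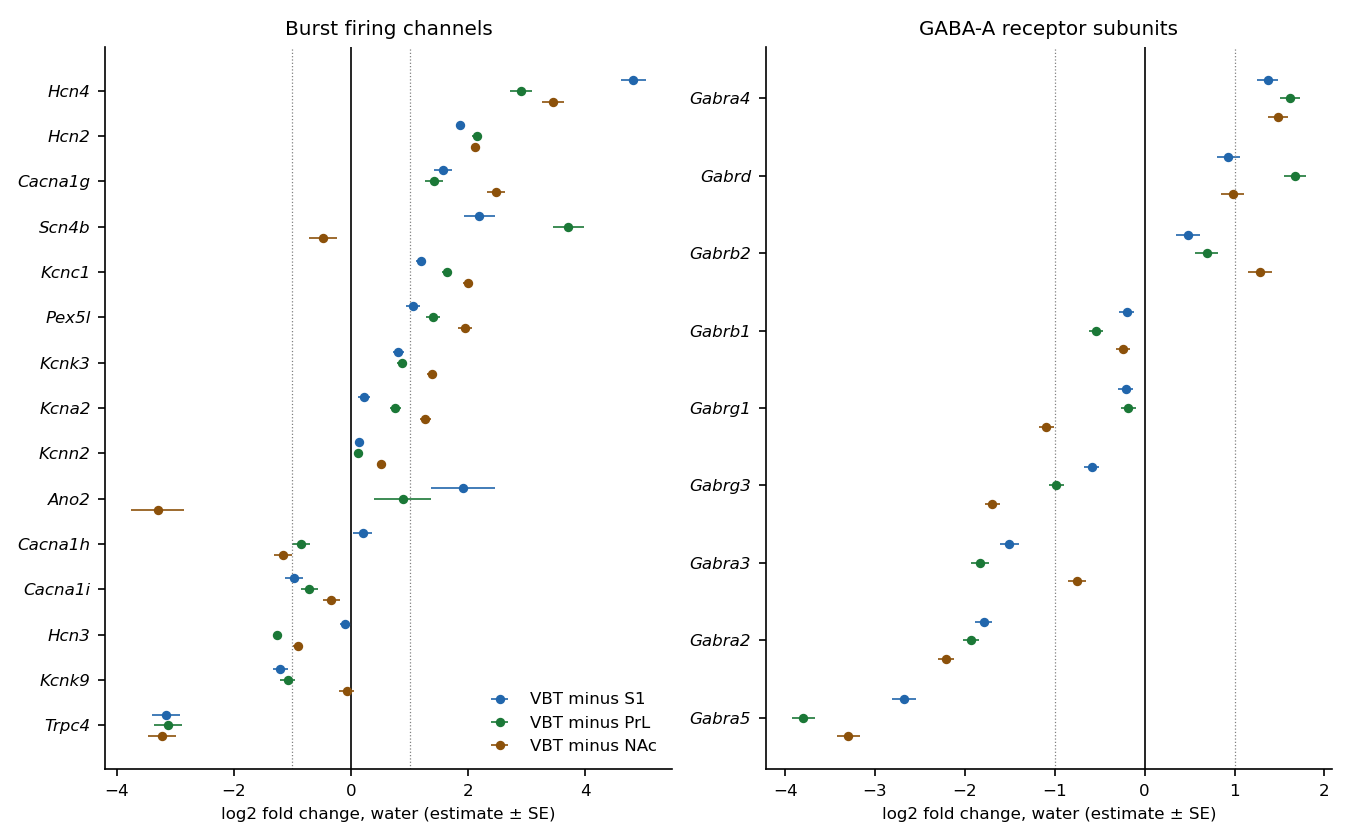
Log2 fold change of VBT over S1, PrL and NAc in water (horizontal axis, estimate ± SE) for members of the burst firing channel and GABA-A receptor subunit lists, with dotted lines at 2-fold. Hcn4 and Hcn2 lie to the right and Trpc4 to the left in all 3 contrasts, and Gabra4 and Gabra5 mark the ends of the receptor panel.

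Of 22 telencephalic transcription factor genes, 11 were lower against all 3 regions and 1 higher, with 23.3% and 22.9% over all genes and medians of -1.44 against S1, -1.87 against PrL and -2.43 against NAc. Neurod2 and Neurod6, basic helix-loop-helix genes of cortical glutamatergic neurons, held 0.232, 0.444 and 1.05 and 0.0773, 0.321 and 0.746 CPM in VBT and at least 13.6 and 8.29 elsewhere. Tbr1, a T-box gene of deep cortical layers, held 0.902, 1.55 and 2.95 CPM in VBT, 124 to 158 in S1, 89.7 to 149 in PrL and 25.1 to 114 in NAc. The wide NAc range recurred in cortical genes: without the 5 NAc libraries richest in Slc17a7, the smallest log2 fold change went from -6.19 to -5.28 for Neurod2, from -5.88 to -5.12 for Neurod6, from -5.29 to -4.40 for Tbr1 and from -4.57 to -3.35 for Emx1. Each kept its call. Fezf2, of subcerebral projection neurons, had a smallest log2 fold change of -4.07.

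Bcl11b was lower, with log2 fold changes of -1.03 against S1, -2.02 against PrL and -4.02 against NAc. Its smallest value was -2.23 without VBT male water 3 and female water 2, and in males alone the call was lost (-0.77). Nr2f2, of the nuclear receptor COUP-TFII, was the 1 listed factor higher in VBT, at 95.1, 109 and 132 CPM against at most 21.2 elsewhere. Isl1 was higher than in S1 (7.86 ± 0.42) and PrL (10.69 ± 0.52) and not called against NAc (-0.11 ± 0.24). Cux2, an upper-layer cortical gene, did not mark the telencephalon here: VBT held 86.2 to 153 CPM, S1 178 to 250.4, PrL 99.2 to 187 and NAc 29.1 to 53.5.

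The other genes with the largest differences below 0 in VBT, among those with a mean of 10 CPM or more in each other region and without overlap, were Ccn3, Gm11549, Bmp3, Rtn4rl2, Vip, Mas1, Hs3st2, Kcnv1 and Gda. Ccn3, a secreted matricellular protein gene, held 0.746, 1.26 and 2.05 CPM in VBT and at least 25.9 elsewhere. Bmp3, of a bone morphogenetic protein, held 0.114, 0.354 and 0.655 CPM against at least 5.32, and Rtn4rl2, of a receptor of the Nogo family, 0.146, 0.204 and 0.412 against at least 3.96. Gda, of guanine deaminase, held 1.77, 3.84 and 33.5 CPM, with the top VBT value far above the median but still under the lowest other library at 264. Kcnv1, of a modifier of potassium channels, held 0.360, 1.08 and 7.0 CPM against at least 55.3. Without VBT male water 3 and female water 2 the smallest log2 fold change went from -5.14 to -6.25 for Gda and from -5.21 to -6.24 for Kcnv1. Mas1, of the receptor for an angiotensin peptide, and Hs3st2, of a heparan sulfate sulfotransferase, had smallest log2 fold changes of -5.30 and -5.22, and both overlap other annotated genes. Gm11549, a predicted gene annotated as protein-coding, was at -5.84.

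Of 20 genes listed for postsynaptic and related signalling in forebrain neurons, 15 were called lower and 1 higher, with 23.3% and 22.9% over all genes and medians of -1.87 against S1, -2.07 against PrL and -2.42 against NAc. Nrgn, of the calmodulin-binding protein neurogranin, held 12.5, 19.7 and 135 CPM in VBT, 1166 to 1482 in S1, 738 to 1271 in PrL and 208 to 475 in NAc. Ddn, of dendrin, held 12.3, 27.5 and 254 CPM in VBT and at least 685 elsewhere, and Camk2a, of the alpha subunit of calcium/calmodulin-dependent kinase II, 612, 758 and 955 against at least 1602. Homer1, of a scaffold for metabotropic glutamate receptors, was lower, with log2 fold changes of -2.63 against S1, -2.35 against PrL and -2.09 against NAc. For Cnr1, of the cannabinoid receptor CB1, they were -1.92 against S1, -2.94 against PrL and -2.36 against NAc. For Nrgn, Ddn, Itpka, Icam5 and Baiap2 the differences were larger without the VBT pair, with smallest log2 fold changes of -3.76, -4.96, -5.10, -5.23 and -4.21 in place of -2.95, -3.84, -4.09, -4.04 and -3.30. Rasgrp1 was the gene called higher, by 0.32 to 0.58 log2 units, a call lost in males alone. The striatal members Ppp1r1b, Pde1b, Pde10a and Adcy5 were lower than in NAc (-3.07, -2.09, -2.47 and -1.80) but not lower than in S1 (0.15, 0.32, 0.98 and 0.89).

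Of 15 GABA and interneuron genes, 7 were lower in VBT against all 3 regions and 2 higher, with 23.3% and 22.9% over all genes. Vip, of vasoactive intestinal peptide, held 0.0819, 0.254 and 1.10 CPM in VBT and at least 5.37 elsewhere. Htr3a and Lhx6, which mark caudal and medial ganglionic eminence lineages, had smallest log2 fold changes of -3.62 and -2.79, and Reln, Npy and Calb1 had -2.0, -1.57 and -1.48. Gad1, of a GABA-synthesizing enzyme, was higher in VBT than in S1 (1.07 ± 0.23) and PrL (1.01 ± 0.22) and not called against NAc (0.38 ± 0.22), where it passed only without VBT female water 3. Pvalb, of parvalbumin, was higher against all 3, at 54.9, 170.0 and 253 CPM against at most 74.8 elsewhere, with overlap in S1. Parvalbumin and Gad1 are also carried by the reticular nucleus that adjoins VBT. Of 8 markers of that nucleus 3 were higher against all 3 regions (Pvalb, Spp1 and Six3), with 22.9% over all genes, and all 8 were higher than in S1 and in PrL, with 34.8% and 34.4%. The Six3 call against NAc (0.57 ± 0.23) was lost without any 1 of 6 libraries and in the fentanyl libraries. Their summed CPM ranged from 416 in VBT female water 3 to 2233 in VBT male water 3, a wider range than in S1 (484 to 776). Six3, also a striatal gene, held 11.7, 73.0 and 116 CPM in VBT, at most 0.284 in S1 and PrL, and 24.2, 50.5 and 73.7 in NAc. The part of reticular nucleus RNA in the VBT values was not tested.

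**Figure D4:**
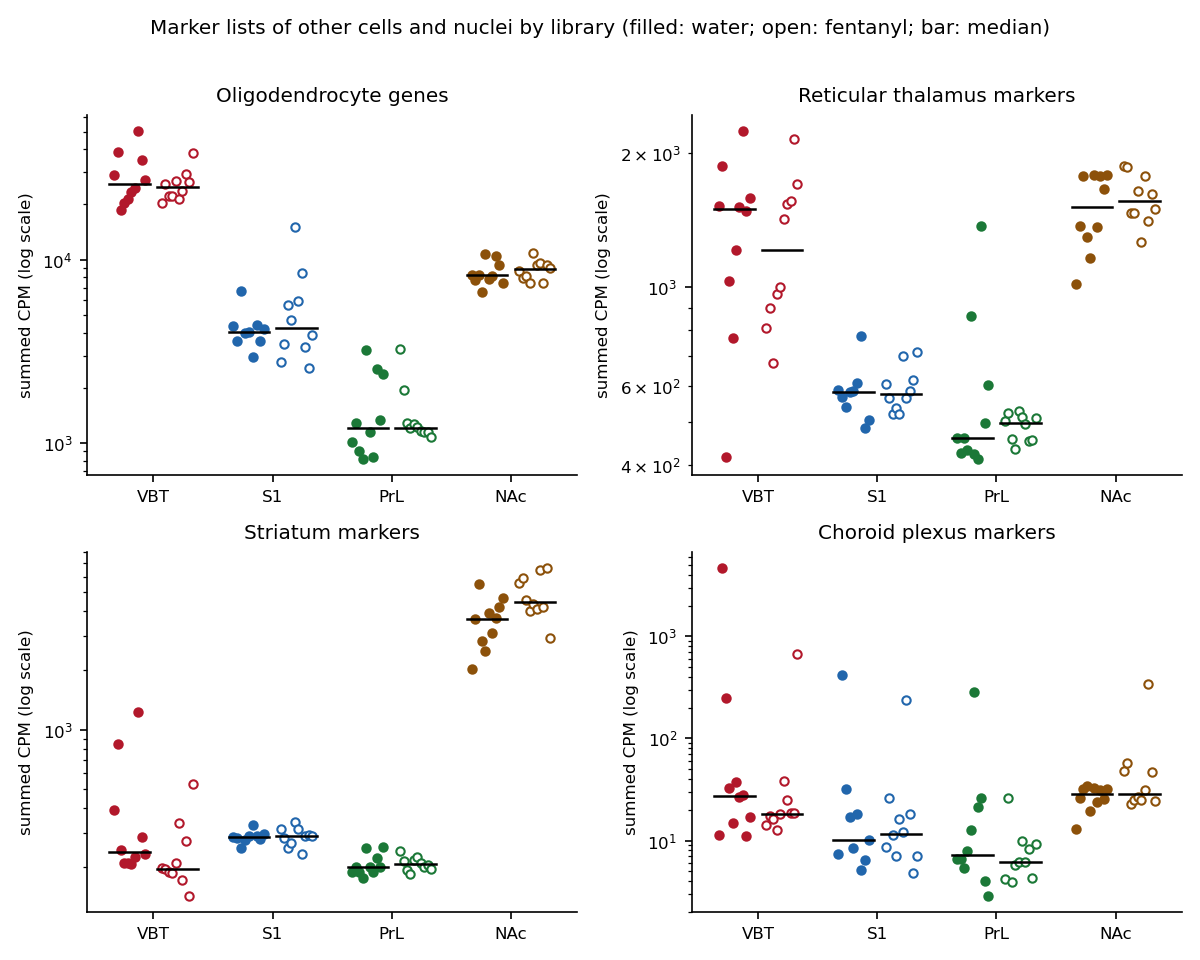
Summed CPM (vertical log axes) of the oligodendrocyte, reticular thalamus, striatum and choroid plexus marker lists in each library, with water libraries filled, fentanyl libraries open and bars at the medians. VBT libraries hold the most oligodendrocyte counts and spread widely in reticular markers, and a few VBT libraries stand out for striatum and choroid plexus markers.

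Markers of other structures near the punches differed between VBT libraries. The summed striatum list was 239 CPM at the VBT median, below S1 (250.4 to 327) and far under NAc (2024 to 5481), while VBT male water 3 reached 1227, female water 2 843 and female water 1 392, all above every S1 library. Drd2 and Adora2a, of striatal dopamine and adenosine receptors, averaged 10.5 ± 11.2 and 14.0 ± 19.3 CPM (SD, n = 10) in VBT. Habenula markers summed to 18.9 to 51.0 CPM in VBT, less than in any other library, and the defining gene Pou4f1 was at most 0.620 CPM. Of 5 tested hypothalamus markers 4 were higher against all 3 regions (22.9% of all genes) and Crh was lower. The higher ones were at low levels: Avp, Gal and Pmch averaged 1.80, 0.767 and 1.03 CPM, while Trh, of thyrotropin-releasing hormone, which reticular neurons also make, averaged 19.3 ± 7.15. Hcrt and Oxt were too low to test. Hippocampus markers went both ways (2 higher, 3 lower of 6, with 22.9% and 23.3% over all genes). Spink8 lost its lower call in 7 of 39 fits with 1 library left out and in each sex alone, and Dsp lost its higher call without VBT female water 2 (0.59 in place of 1.39). Choroid plexus markers had a VBT median of 27.1 CPM in sum, and Ttr, of the thyroid hormone carrier transthyretin, was not called against S1 or PrL (adjusted p 0.0622 and 0.412). Cortex markers summed to 275 to 637 CPM in VBT, mostly Slc17a7, below every S1 and PrL library and overlapping NAc. Within VBT, Slc17a7 was lowest, at 166 CPM, in male water 3, the library with the least Prkcd. The cortex markers Neurod6 and Tbr1 were at most 0.746 and 2.95 CPM in VBT. Whether this sum holds RNA from cortex was not tested.

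Myelin and oligodendrocyte genes were higher in VBT without exception: all 12 listed genes passed against all 3 regions, each at least 2-fold and without overlap in CPM. Over all genes 6.16% were higher at least 2-fold and 8.2% were higher without overlap. Mog, of myelin oligodendrocyte glycoprotein, held 224, 294 and 604 CPM in VBT, 32.6 to 82.0 in S1, 7.83 to 33.8 in PrL and 76.6 to 128 in NAc. It was higher by 2.75 against S1, 4.37 against PrL and 1.86 against NAc, and Gjb1, of the gap junction protein connexin 32, by 3.58 against S1, 4.63 against PrL and 2.62 against NAc. The regions kept 1 order in this list, VBT above NAc above S1 above PrL by the median sum (25909, 8208, 4009 and 1212 CPM). The top S1 library, at 6728, just overlapped the lowest of NAc at 6687, and the top PrL library, at 3217, lay above the lowest of S1 at 2954. Within VBT the sum spread from 18722 to 50225 CPM, with VBT male water 3 at the top.

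Astrocyte genes separated by gene. Of 11 general genes 6 were higher and 2 lower, and of 6 genes known to differ between astrocytes of different regions 5 were higher and 1 lower, with 22.9% higher and 23.3% lower over all genes. Gfap lost its higher call in females alone, and Gja1 in each sex alone. Agt, of angiotensinogen, held 83.1, 98.6 and 110.2 CPM in VBT and at most 11.4 elsewhere. Slc6a11, of the GABA transporter GAT-3, held 443, 611 and 686 CPM against at most 429, and Slc6a9, of the glycine transporter GlyT1, 154, 172 and 206 against at most 63.3. Mfge8 was the lower gene, at 32.0, 36.5 and 67.3 CPM against at least 83.7. The glutamate transporter genes Slc1a2 and Slc1a3 (GLT-1 and GLAST) were lower, with log2 fold changes of -1.34 against S1, -0.76 against PrL and -0.48 against NAc for the first, and -1.43 against S1, -1.27 against PrL and -1.19 against NAc for the second. Aldh1l1 and Sox9, broad astrocyte genes, were not called against S1 (0.06 ± 0.05) and PrL (-0.09 ± 0.08) respectively. Without VBT female water 2 Sox9 was called lower (-0.18). Of 9 tested microglia genes 4 were lower and none higher, with 23.3% and 22.9% over all genes. P2ry12 was among the lower ones, with a smallest log2 fold change of -0.66. In males alone Aif1 and Cx3cr1 were among those that lost their lower call. None of the 5 blood genes was called against all 3 regions, though 2 were higher than in NAc, with 33.5% over all genes. Of 8 endothelial genes 3 were higher, against 22.9% of all genes, Slc2a1 by the most (0.57 to 0.85 log2 units), and Ly6c1 lost its call in females alone.

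The genes found in water were then read in the fentanyl libraries, which had no part in choosing them. In these, 22.4% of 19618 genes were higher and 22.5% lower in VBT against all 3 regions. Of the 1215 genes at least 2-fold higher in water, 1194 were tested in fentanyl and 1165 (97.6%) were called higher against all 3 regions. Of the 1584 at least 2-fold lower, 1536 were tested and 1414 (92.1%) were called lower. None was called in the opposite direction in all 3 contrasts. Without the 2-fold demand, 3916 of 4483 higher genes (87.4%) and 3767 of 4548 lower genes (82.8%) kept their call.

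**Figure D5:**
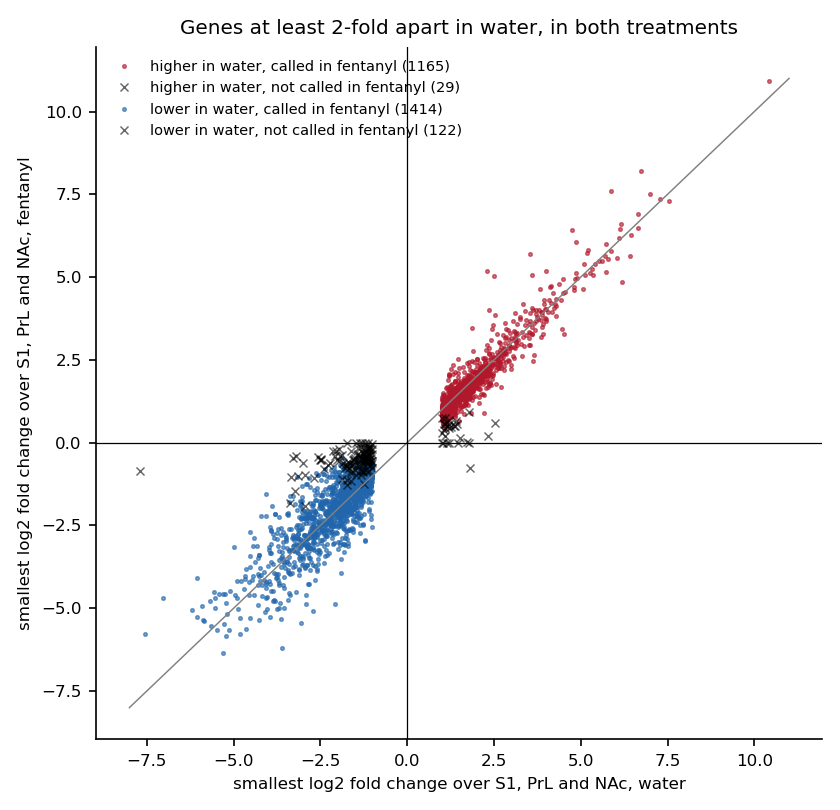
Smallest log2 fold change of VBT over S1, PrL and NAc in water (horizontal axis) and in fentanyl (vertical axis) for each gene at least 2-fold apart in water and tested in fentanyl, with crosses for the 29 higher and 122 lower genes not called in fentanyl. The genes lie along the line of equal values, with more scatter among the lower genes.

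Tcf7l2 held 199, 242 and 278 CPM in the VBT fentanyl libraries, Slc17a6 293, 370.0 and 438, Shox2 109, 141 and 163 and Prkcd 673, 1666 and 2019. Each lay above every fentanyl library of the other regions. Prkcd was lowest in VBT male fentanyl 4 and 5, at 807 and 673 CPM, while Tcf7l2 was at 215 and 216 CPM there. In the same 2 libraries the relay neuron genes summed to 5558 and 4842 CPM, against at least 7845 in the other 8, Calb2 was at 80.4 and 72.6 CPM, against at most 38.6, and the reticular nucleus markers summed to 2144 and 1697, against at most 1555. Smallest log2 fold changes in fentanyl and water were 10.93 and 10.42 for Shox2, 6.92 and 6.64 for Prkcd, 3.41 and 2.90 for Hcn4, and 5.80 and 5.87 for Tnnt1. In the other direction they were -5.06 and -6.19 for Neurod2, -2.75 and -3.13 for Trpc4, and -4.57 and -5.29 for Tbr1. NAc held 208 to 1183 CPM of Slc17a7, a cortical marker here, in water and 42.1 to 678 in fentanyl, and the part of this in the smaller fentanyl values was not tested. All 14 thalamic factors and all 17 relay genes called in water were called again. Slc17a7 was not called lower against NAc in fentanyl (-0.01), nor were Gabra3 and Gabrb1 against all 3 regions.

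Whether a regional difference itself depended on treatment was tested as an interaction over all 79 libraries and 20750 genes (edgeR quasi-likelihood test, adjusted p under 0.05). For VBT against S1, 173 genes (0.834%) were called, 14 with a larger and 159 with a smaller VBT-minus-S1 value in fentanyl, while the unadjusted p was under 0.05 for 1935. For PrL 12 genes (0.0578%) passed, against 2075 before adjustment, and for NAc 17 (0.0819%), against 2538. DESeq2 called 69 for PrL and 160 for NAc. No gene was called in all 3, by edgeR. Of the 2799 genes at least 2-fold apart in water, 16 were called in any of the 3. These counts depended on single libraries: for S1 the count ranged from 111 without VBT male water 3 to 294 without S1 male fentanyl 5, for PrL from 0 without PrL female water 5 or PrL male water 3 to 41 without PrL female water 1 or 3, and for NAc from 6 without VBT male water 3 to 282 without NAc male fentanyl 5.

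Of the called genes with the smallest p in each direction, Chrna3 was in the habenula marker list. The others were in none of the gene lists used here. Gm20721, a gene that overlaps Gnas, held 3.04 ± 2.20 CPM in VBT water (SD, n = 10) and 1.45 ± 0.428 in VBT fentanyl, and 1.35 ± 0.462 in S1 water (n = 9) and 3.59 ± 1.52 in S1 fentanyl (interaction -2.48 ± 0.35 SE, adjusted p 1.13e-05, edgeR). Rpl19-ps11, a processed pseudogene of a ribosomal protein gene whose reads may be shared with its parent, held 8.51 ± 1.04 CPM in S1 water and 5.56 ± 1.34 in S1 fentanyl, with 4.23 and 4.84 in VBT (0.79 ± 0.17, adjusted p 0.00504). Chrna3, of a nicotinic receptor subunit, differed against PrL (3.74 ± 0.69, adjusted p 0.00796). Its PrL water mean of 1.62 ± 2.74 CPM rested on libraries up to 7.61, and the call was lost without PrL female water 5 or PrL male water 3. Ncoa4, of the receptor for ferritin autophagy, was the 1 gene called against both PrL (-0.50 ± 0.11, adjusted p 0.0371) and NAc (-0.59 ± 0.11, adjusted p 0.00497) among those named, with 108 ± 12.1 CPM in VBT water and 78.7 ± 18.2 in VBT fentanyl. The ranges of these 2 groups overlapped (80.0 to 122 and 57.3 to 107 CPM), and the PrL call was lost in 13 of 79 fits without 1 library. AC124108.1 differed against NAc (1.41 ± 0.25, adjusted p 0.00497), with NAc means of 3.75 ± 1.2 CPM in water and 2.21 ± 0.693 in fentanyl. It averaged 9.58 CPM in S1 and 8.75 in PrL water libraries, and the summed cortex markers of NAc were 362 to 1472 CPM in water and 174 to 914 in fentanyl. The part of these in the result was not tested.

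Regional differences were also compared between the sexes in water, over 20994 genes. By edgeR no gene (0%) passed for S1 or for PrL. Unadjusted p-values were under 0.05 for 955 and 764 genes, and DESeq2 called 1 and 12. For NAc 1 gene (0.00476%) passed, against 2049 before adjustment and 36 by DESeq2. It was Gm28438, a pseudogene (4.96 ± 0.81 SE, adjusted p 0.0124), which ranged from 0.750 to 61.3 CPM in NAc water and lost its call without VBT female water 2 or male water 3. Without NAc female water 3 the NAc count was 190.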

How the data were processed

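RNA of tissue punches was sequenced after SMART-Seq v4 amplification, per the labels' protocols. The authors deposited counts per gene for each library, made with HTSeq on GRCm38, per the submitters' processing notes. The aligner, the annotation release and the strand setting are not given in the sources used here. The files list 55335 gene ids, of which 55154 were matched to GENCODE M21 for names and positions, and 5 lines of unassigned reads were kept out of totals and tests. Between 24434050 and 48417581 counts per water library set the precision, and floors cover counting error only, since no molecular identifiers were counted.

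From these deposited counts, CPM were computed over the total on genes, and RPKM from CPM and exon length. Genes passing filterByExpr were tested with edgeR 4.0.16 (quasi-likelihood test, TMM, R 4.3.3), with region and sex in the model, 1 fit per treatment, and p-values adjusted by Benjamini-Hochberg over all genes tested. A gene was called against all 3 regions at an adjusted p under 0.05 and the same sign in each contrast. Separate fits tested region by treatment over 79 libraries and region by sex over 39. Each SE was derived from the test's F statistic. The scripts were tested on simulated data.

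The genes named were the 3 markers, 12 genes in each direction with the largest smallest log2 fold change among protein-coding genes without overlap and with a mean of 10 CPM or more (in VBT, or in each other region for lower genes), the called interaction genes with the smallest p in each direction, and the members of 28 lists with 260 genes. The members and lists were chosen with earlier results of these data known. Some genes of these lists are counted but not reported by name here or in the plots. Alternatives covered DESeq2 1.42.0 and its size factors, filters, the replicate block, each sex, pairwise fits, fold thresholds and libraries left out. Samples were grouped by their labels alone. The labels do not say whether same-numbered libraries came from the same animals, so numbers were not treated as pairs.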

Additional observations from a re-analysis of the deposited data

Results flagged for a closer look

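Of 72 values tested for a single library far from the rest of its 10, over 26 named genes and summed marker lists in VBT, 15 stood out, and chance gives about 1 in 20, or 3.6. In VBT water, male water 3 held 29.5 CPM of Epn3 against 53.5 to 70.1 in the rest, 1.10 CPM of Vip and 2.95 CPM of Tbr1, all at the end nearest the other regions. Male water 1 held 1.05 CPM of Neurod2. Female water 2 held the most choroid plexus markers (4634 CPM, against 11.1 to 246.5 in the rest), ependyma markers (82.1 CPM) and hippocampus markers (17.6 CPM). In VBT fentanyl, male fentanyl 5 stood out in 6 lists: oligodendrocyte (38421 CPM), striatum (531), choroid plexus (671.9), blood (134), ependyma (46.2) and hippocampus (27.4). Male fentanyl 1 held 0.607 CPM of Rtn4rl2 and male fentanyl 4 3.41 CPM of Tbr1.

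Differences between treatments or sexes were tested as interactions by edgeR, which called 173, 12 and 17 genes for treatment against S1, PrL and NAc and 1 for sex, against NAc. The 6 genes here are those with the smallest p in each direction of each contrast with calls. The VBT-minus-S1 value was larger in fentanyl than in water by 0.79 log2 units for Rpl19-ps11 and differed by -2.48 for Gm20721. The VBT-minus-PrL value differed by 3.74 for Chrna3 and -0.50 for Ncoa4. The VBT-minus-NAc value differed by 1.41 for AC124108.1 and -0.59 for Ncoa4, and between males and females in water by 4.96 for Gm28438. The Chrna3, Gm28438 and PrL-based Ncoa4 calls were lost with some libraries left out, while the Rpl19-ps11, Gm20721, AC124108.1 and NAc-based Ncoa4 calls were kept in each fit without 1 library.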

How the results depend on the processing

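Of the 26 named genes, each kept its call in 50 alternatives. Most of them were chosen from these water libraries for the largest differences without overlap, so keeping the call was largely fixed beforehand. No named or listed gene reversed. The count of genes at least 2-fold lower was 932 with a mean of 50 counts or more, of which 918 were among the 1584. With a fold of 1.5 the counts were 2133 higher and 2485 lower, and with a fold of 4 they were 362 and 616. Without 1 library, 1177 to 1269 genes were at least 2-fold higher and 1559 to 1709 lower, and in fentanyl 1162 to 1176 and 1393 to 1424 were called again. Interaction counts moved most. DESeq2 called 69 genes for treatment against PrL and 160 against NAc, and for sex 1 against S1, 12 against PrL and 36 against NAc. Without VBT female water 2, male water 3, male fentanyl 4 and male fentanyl 5 the treatment counts were 0 for PrL and 2 for NAc. Without 1 library they ranged from 111 to 294 for S1, 0 to 41 for PrL and 6 to 282 for NAc, and the sex counts from 0 to 1 for PrL and 0 to 190 for NAc. With the replicate block the treatment counts were 0 for PrL and 6 for NAc and the sex count 0 for NAc, while the water counts were 1214 higher and 1600 lower at 2-fold. The Chrna3, Gm28438 and PrL-based Ncoa4 interaction calls and the Six3 and Kcna2 regional calls were lost with the block. The labels do not say whether same-numbered libraries came from the same animals, so the numbers were not taken as pairs. Over 57 same-numbered pairs the median correlation of deviations was 0.048, against -0.011 over 228 others. Of the 57, 6 exceeded 0.1, and of the 228, 3 did, which does not decide whether animals were shared. Leaving out libraries that stood apart was chosen after seeing the data, and the cause of these moves was not tested. A gene at or under 3 counts in a library lies at the floor of what this depth can show.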

Other observations

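Genes with names from skeletal muscle did not move as 1 group. They were looked up after Tnnt1, Atp2a1, Synpo2 and Ppp1r3a were seen among the highest VBT genes. Smpx, of a small muscle protein, averaged 5.39 ± 1.65 CPM (SD, n = 10) in VBT and at most 0.352 in any other library, and Casq1, of the calcium store protein calsequestrin 1, averaged 1.27 ± 0.373. Both were higher in VBT against all 3 regions in water and in fentanyl. Contractile genes differed among themselves. Tnnt1 and Mylpf, of a myosin light chain (smallest log2 fold change 0.70), were higher in VBT, and Actn3 was called higher in fentanyl and not in water, while Myh1, Myh2, Myh4, Myh7, Myl1 and Acta1 were lower in both treatments. Reads of the myosin heavy chain genes may be shared among them. Of other muscle genes looked up, Ryr1 and Pgam2 were lower and Cacna1s was higher. Des and Eno3 were not called in either treatment, and Tnnt3, Mb and Tnnc2 were not tested. Myh7, of a slow myosin heavy chain, averaged 1.57 CPM in VBT and 21.5, 17.9 and 14.8 in S1, PrL and NAc, and Acta1, of skeletal actin, 1.11 against 6.12, 5.29 and 3.16. Ckm, Myod1 and Myog, which define muscle cells, were at most 0.0579, 0.112 and 0.116 CPM in any VBT water library.

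Adcyap1, of the neuropeptide PACAP, was chosen after its values were seen. It held 0.516 to 2.71 CPM in VBT water and 1.30 to 7.95 in VBT fentanyl, while NAc held 3.96 to 34.3 in water and 0.695 to 13.4 in fentanyl. VBT and NAc did not overlap in water and overlapped in fentanyl. Slc17a7, a cortical marker, was 208 to 1183 CPM in NAc water and 42.1 to 678 in NAc fentanyl, and the NAc library with the most Adcyap1 (female water 1) and that with the least (female fentanyl 1) also held the most and the least Slc17a7. The part of this in the difference was not tested. Gm5537, a processed pseudogene on chromosome 3 whose reads may be shared with a parent gene, was also chosen after its values were seen. It was under 1 CPM in all 10 VBT water libraries and in 8 of 10 VBT fentanyl libraries, with 6.12 and 18.0 CPM in the other 2. Within the other regions it was also present or near absent by library: 2 of 9 S1, 4 of 10 PrL and 1 of 10 NAc water libraries held under 1 CPM, and the rest at least 3.24. Vipr2, of a receptor for VIP and PACAP, held 21.9 to 68.6 CPM in VBT water, and reached 27.7 in PrL male water 3, 12.7 in PrL female water 5 and 10.0 in NAc male water 2. In those 2 PrL libraries Tcf7l2 (7.62 and 6.14 CPM) and Slc17a6 (31.1 and 29.7 CPM) were the highest of PrL water, and Prkcd was 9.75 and 8.27 CPM.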
